A study of Homo sapiens with 18 samples.

Results

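The genes described here encode the proteins of the mitochondrial ribosome. They were chosen by name: every protein-coding gene whose symbol is MRPL or MRPS followed by a number, with or without a letter, plus DAP3, with 1 Ensembl identifier per symbol. This gave 79 genes of the 60623 in the gene table, and all 79 passed the filter on low counts that left 16414 genes to test. No measured value was used to choose them. By their known place in the particle, 29 belong to the large subunit and have a bacterial counterpart, 22 belong to the large subunit and are specific to mitochondria, 16 belong to the small subunit with a bacterial counterpart, and 11 belong to the small subunit and are specific to mitochondria. The last, MRPS36, carries the family name but is known as a component of the 2-oxoglutarate dehydrogenase complex.

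The samples were HEK-293E cells, a human embryonic kidney cell line that expresses an Epstein-Barr virus nuclear antigen, in 6 groups of 3 libraries. Cells were kept overnight in medium with 0.1% serum (starved), or were then given regular growth medium for 1 h or for 4 h (fed). Each of these states was sampled without and with Torin1, a kinase inhibitor of mTOR, the nutrient-sensing kinase of the complexes mTORC1 and mTORC2. The sources used here give neither the dose nor the duration of Torin1, nor any vehicle, and all groups come from 1 cell line. The labels do not say whether replicates were separate cultures, so every p below measures the spread between these libraries, which may be technical.

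The mitochondrial ribosome translates the few messages made from mitochondrial DNA, all of which encode subunits of the respiratory chain and ATP synthase. Its RNA is transcribed in the organelle, whereas all of its proteins are encoded in the nucleus, made on cytosolic ribosomes and imported. mTORC1 is known to promote the making of cytosolic ribosomes and of many mitochondrial proteins, largely through translation of their messages. The measurements here are of RNA level, which does not report on translation.

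Library totals ran from 10510689 to 13690035 counts, and the 79 members had between 39 and 4682 counts in any library. The HEK293 line markers were all detected (7 of 7). Their summed level, divided by total counts without TMM adjustment, was 707 to 984 CPM in the 9 libraries without Torin1. It was 1330 to 1650 CPM in the 9 with it. Elsewhere CPM are gene counts divided by the TMM-adjusted library total. The markers did not all move in the same direction: edgeR called 5 higher and 1 lower with Torin1 in starved cells. In 1 h fed cells these were 5 and 1, and in 4 h fed cells 4 and 1. The part of the shift in summed level in the results below was not tested. Of the markers of differentiated kidney, SLC12A1, SLC34A1, AQP2 and UMOD were under 1 count on average. In bulk RNA, fewer cells with a transcript and less of it per cell cannot be told apart. Of the 79 members, 39 overlap a gene on the opposite strand, and the sources used here do not say whether counting used strand, so their values may include reads of that gene.

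Together the mitochondrial ribosomal protein genes took a small share of each library. It was 0.524% ± 0.016 (SD, n = 3) of counts in starved cells, 0.499% ± 0.0189 after 1 h of feeding and 0.601% ± 0.0256 after 4 h. With Torin1 it was 0.507% ± 0.0242 in starved, 0.508% ± 0.0024 in 1 h fed and 0.500% ± 0.0117 in 4 h fed cells. The share was highest in 4 h fed cells without Torin1. Single members moved far more than this total, by up to 6.02-fold.

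**Figure D1:**
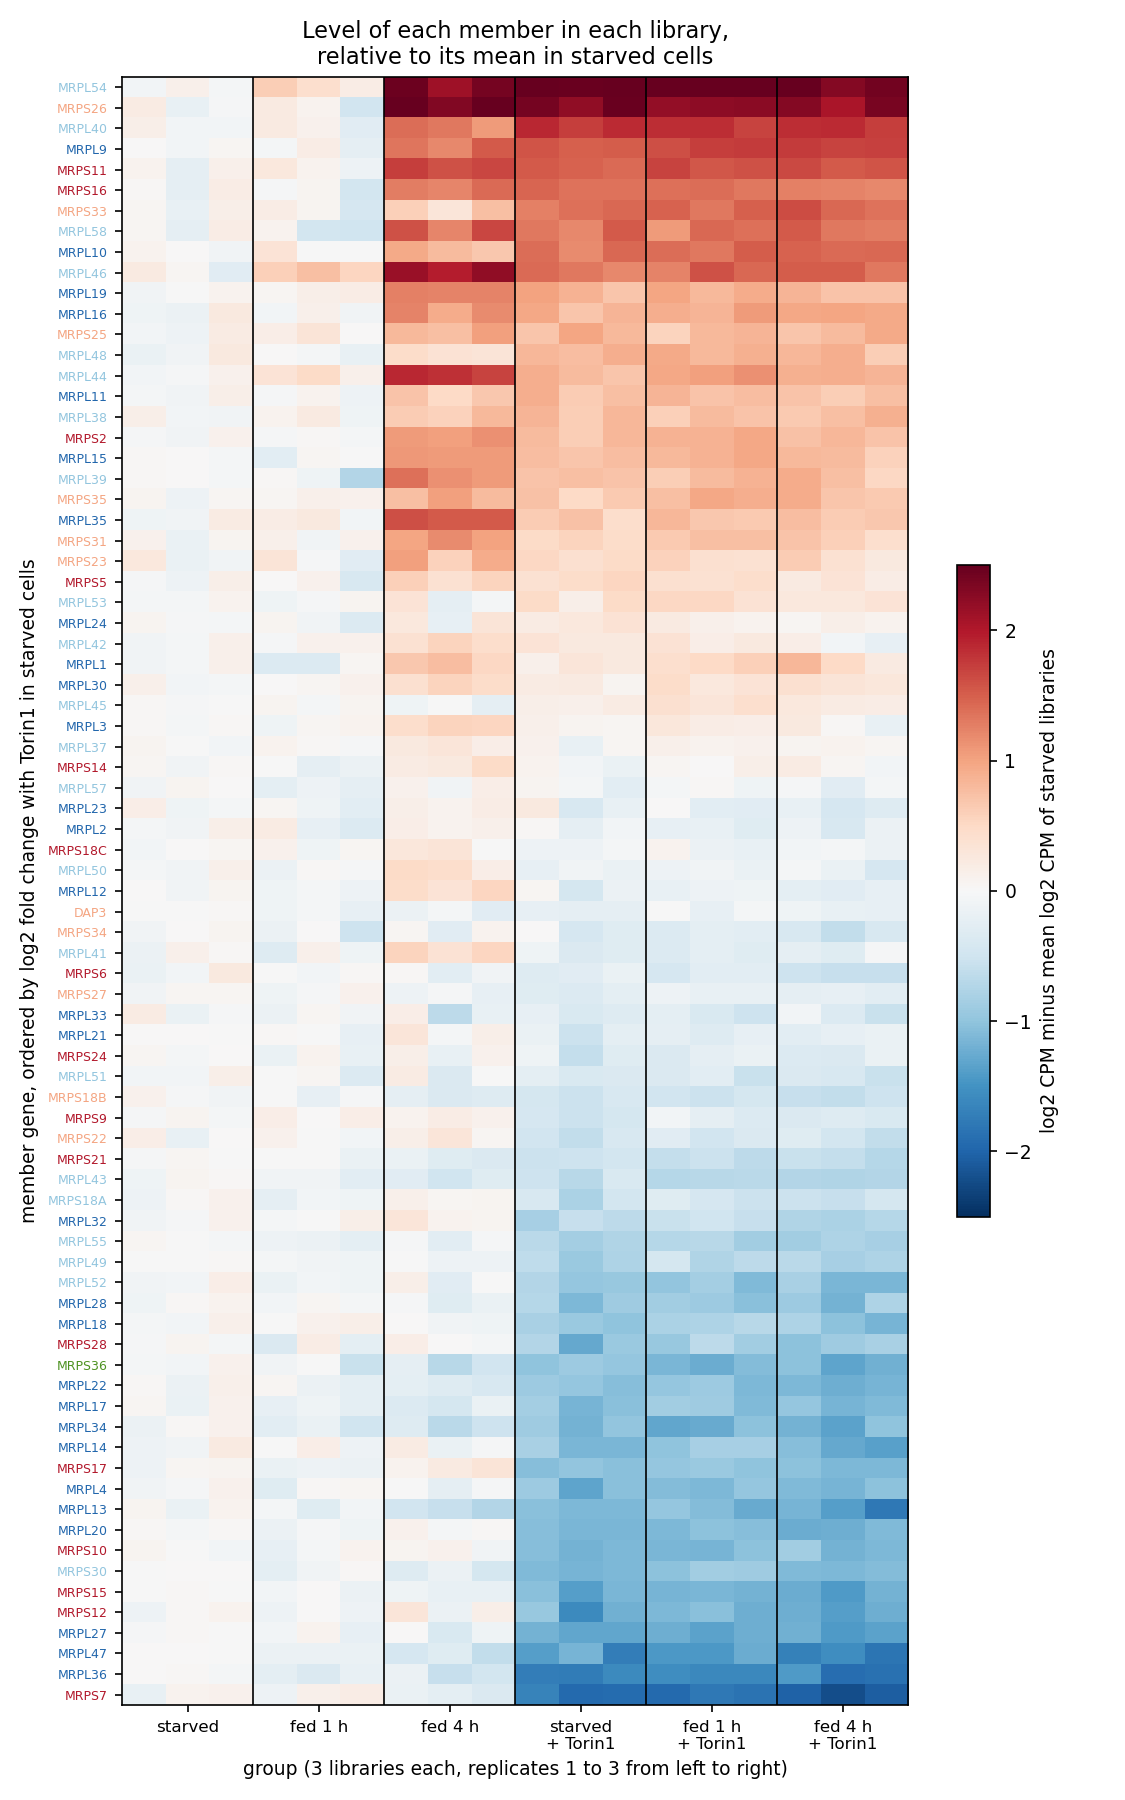
Level of each of the 79 members (rows, coloured by class: dark blue, large subunit with bacterial counterpart; light blue, large subunit specific to mitochondria; dark red, small subunit with bacterial counterpart; orange, small subunit specific to mitochondria; green, MRPS36) in each of the 18 libraries (columns), as log2 CPM minus the mean of the 3 starved libraries. The colour scale ends at 2.5 in either direction. Rows are ordered by the change with Torin1 in starved cells. Starved and 1 h fed libraries look alike, the 3 Torin1 groups look alike, and 4 h fed libraries share the raised block at the top with the Torin1 groups but are much less lowered in the block at the bottom, where MRPS7, MRPL36 and MRPL47 were called lower with 4 h of feeding too.

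The first comparison asked what 1 h of feeding did to starved cells. Only 1 member was called higher and none lower by edgeR's quasi-likelihood test with an adjusted p under 0.05, against 0.481% of all genes higher and 0.164% lower. The one called was MRPL46, a mitochondria-specific protein of the large subunit. Its level was 12.5, 11.03 and 8.82 CPM in the starved libraries and 16.1, 18.1 and 15.4 CPM after 1 h. The groups did not overlap, and the log2 fold change was 0.62 ± 0.14 (SE; edgeR adjusted p = 0.0298). This call was lost when libraries were scaled by total counts, with limma-voom, when only those 2 groups were fitted, and on leaving out replicate 2 or 3 of either group. The median change of the members was -0.06 on the log2 scale, beside 0.01 for all genes tested. At an unadjusted p under 0.05 there were 5 members of 79, and 1525 of the 16414 genes.

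After 4 h of feeding, members moved apart. Of the 79, 34 rose, 12 fell and 33 did not pass the test, where 23.2% of all genes rose and 19.1% fell. Of those that rose, 16 did so at least 2-fold, and no member fell that far. How many of all genes moved that far was not counted. The median member changed by 0.15 on the log2 scale, beside -0.00 for all genes. The rises led in mitochondria-specific proteins, of which 18 of 33 rose and 3 fell, while 16 of the 45 with a bacterial counterpart rose and 8 fell; this difference between classes was not tested. By subunit, 23 of 51 large-subunit genes rose and 8 fell, and 11 of 27 small-subunit genes rose and 3 fell.

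MRPS26 (ENSG00000125901; GRCh38 chr20:3045945-3048254, plus strand), a mitochondria-specific protein of the small subunit, rose most. Its level was 18.9, 14.3 and 15.98 CPM in the starved libraries and 113.0, 80.7 and 101.0 CPM in the 4 h fed ones. The groups stood far apart, and the fold was 6.02 (log2 fold change 2.59 ± 0.15, edgeR adjusted p = 2.49e-13).

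MRPL54 (ENSG00000183617; GRCh38 chr19:3762664-3768575, plus strand), a small mitochondria-specific protein of the large subunit, was at 3.79, 4.34 and 3.86 CPM in starved cells and at 21.9, 17.3 and 21.0 CPM after 4 h. All fed libraries were above all starved ones, by 5.0-fold (log2 fold change 2.32 ± 0.18, edgeR adjusted p = 6.54e-12). MRPL54 was the lowest member per length in starved cells.

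MRPL46 (ENSG00000259494; GRCh38 chr15:88459476-88467419, minus strand) went from 12.5, 11.03 and 8.82 CPM to 48.0, 41.5 and 49.6 CPM. That is a 4.3-fold rise with no overlap (log2 fold change 2.10 ± 0.14, edgeR adjusted p = 1.03e-13), and 4 h fed libraries were also above 1 h fed ones (log2 fold change 1.49 ± 0.13, edgeR adjusted p = 8.66e-11). MRPL46 is the one member that had already been called at 1 h.

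MRPL44 (ENSG00000135900; GRCh38 chr2:223957404-223967714, plus strand), a large-subunit protein with a ribonuclease III fold, had 18.7, 19.1 and 20.9 CPM in starved cells and 71.8, 69.5 and 63.1 CPM after 4 h. The rise was 3.48-fold with no overlap (log2 fold change 1.80 ± 0.11, edgeR adjusted p = 1.8e-14). MRPS11, a small-subunit protein of the ancient bacterial set, rose 3.17-fold, from 14.8, 11.9 and 15.1 CPM to 46.0, 41.8 and 43.9 CPM (log2 fold change 1.66 ± 0.12, edgeR adjusted p = 6.71e-13). These 5 members had the largest rises of the 34.

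The falls after 4 h were smaller. MRPL13, a large-subunit protein with a bacterial counterpart, fell most, from 67.8, 58.0 and 69.2 CPM to 46.7, 43.6 and 39.0 CPM (log2 fold change -0.59 ± 0.12, edgeR adjusted p = 0.000165). The groups did not overlap. MRPL34, MRPS36, MRPL47 and MRPL36 followed with log2 fold changes of -0.50, -0.45, -0.44 and -0.39. MRPL43 fell by 0.35 and MRPS18B by 0.30 on the log2 scale.

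Members with known special roles were spread over all outcomes at 4 h. MRPL12, which forms the flexible stalk of the large subunit and also binds the mitochondrial RNA polymerase, rose from 154.2, 144.6 and 160.7 CPM to 210.5, 193.3 and 221.7 CPM, without overlap (log2 fold change 0.45 ± 0.09, edgeR adjusted p = 0.000141). MRPL58, a peptidyl-tRNA hydrolase built into the large subunit that rescues stalled ribosomes, rose 2.84-fold, from 9.28 to 12.3 CPM in the starved libraries to 25.1 to 34.7 CPM (edgeR adjusted p = 5.6e-09). DAP3, the GTP-binding protein of the small subunit that was first described as a mediator of cell death, had 145.2, 144.7 and 148.5 CPM in starved cells and 132.6, 140.5 and 120.7 CPM after 4 h, and its log2 fold change of -0.15 ± 0.08 missed the threshold (edgeR adjusted p = 0.108).

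MRPL11, MRPL3 and MRPS2, core proteins of the bacterial set, rose by 0.63, 0.51 and 1.08 on the log2 scale. MRPS12 of the decoding site (0.11), MRPS6 (-0.11), MRPS34 (-0.04) and MRPS28 (0.04) did not pass the test. Of the 3 paralogs of bacterial S18, MRPS18B fell, while MRPS18A (log2 fold change 0.08) and MRPS18C (0.21) did not pass. MRPS30, which despite its name sits in the large subunit, fell by 0.30 on the log2 scale. Its call was lost without 4 h fed replicate 3, and that of MRPL36 without 4 h fed replicate 2.

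Set against 1 h of feeding instead of starvation, 4 h of feeding gave 35 members higher and 5 lower, where 21.7% of all genes were higher and 18.1% lower. The median member was 0.21 above its level at 1 h. MRPS26 (log2 fold change 2.62), MRPL54 (1.91), MRPL58 (1.78), MRPS11 (1.58) and MRPL46 (1.49) led the rises. The 5 lower members were MRPL13 (-0.46), MRPS7 (-0.31), MRPL47 (-0.29), MRPS18B (-0.22) and MRPS21 (-0.21), and this count depended on the fit: it was 9 with DESeq2's Wald test, 2 when only those groups were fitted, 3 without 1 h fed replicate 1 or 2, and 2 without 4 h fed replicate 3. This comparison shares the 4 h fed libraries with the one against starvation and is no second test of it.

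**Figure D2:**
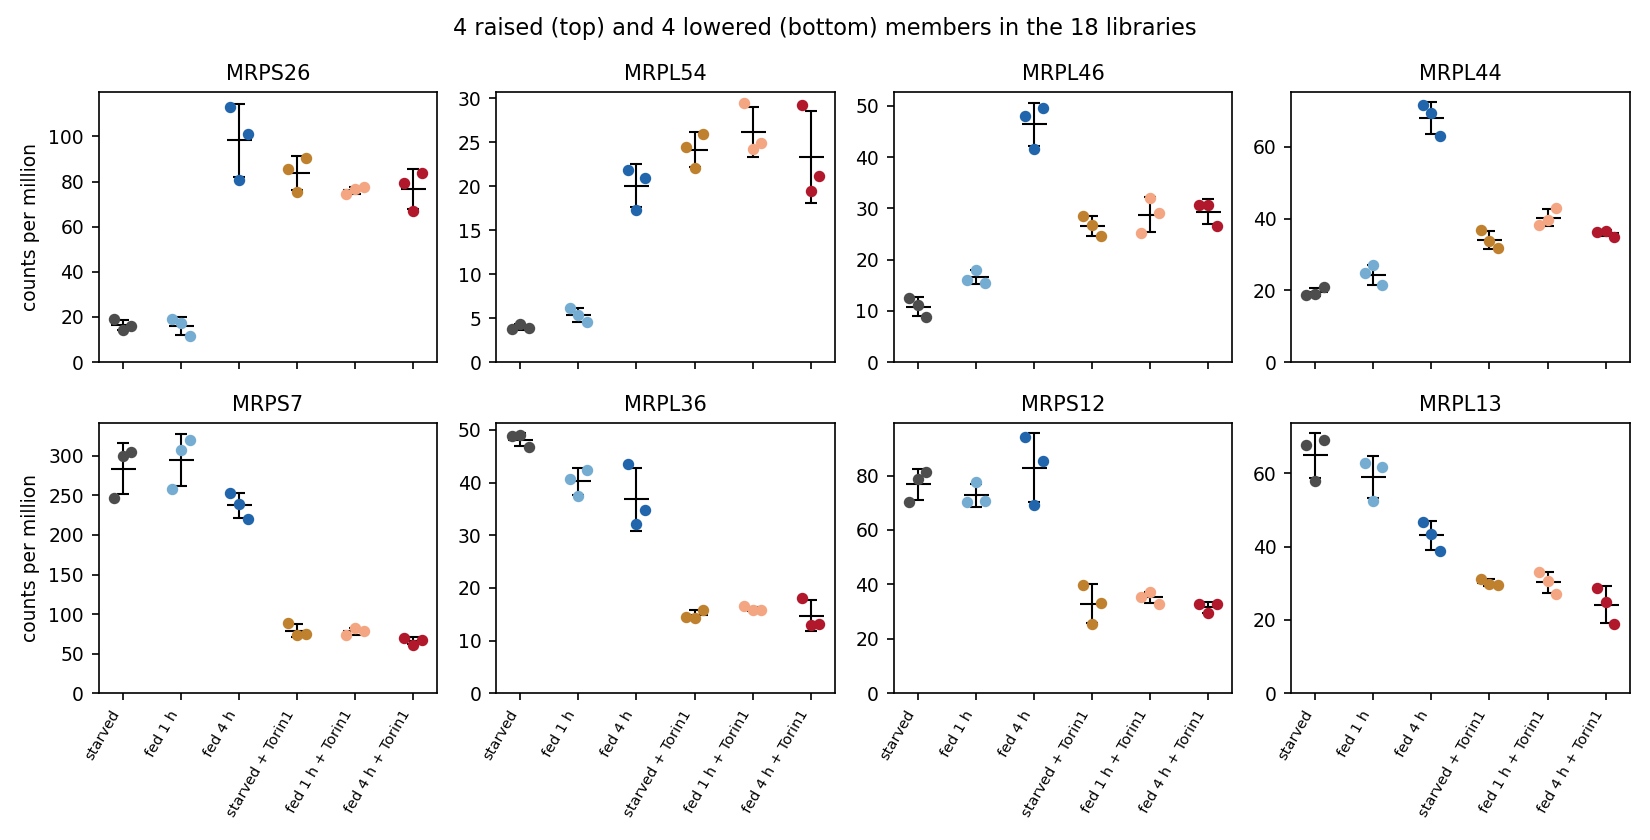
CPM of 8 members in the 18 libraries (points, 3 per group), with the group mean (dash) and SD (bars); each vertical axis starts at 0. In the top row MRPS26, MRPL54, MRPL46 and MRPL44 are low in starved and 1 h fed cells and higher in the other 4 groups. MRPL46 and MRPL44 are highest in 4 h fed cells without Torin1. The mean of MRPS26 is highest there too, but its libraries overlap those with Torin1. In the bottom row MRPS7, MRPL36, MRPS12 and MRPL13 are lower in the 3 Torin1 groups than in the 3 groups without it.

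Torin1 given to starved cells moved most members, in both directions. Of the 79, 28 rose, 37 fell and 14 did not pass the test, where 33.9% of all genes rose and 29.6% fell. At least 2-fold changes were seen in 10 members that rose and 15 that fell, and were not counted over all genes. The median member changed by -0.16 on the log2 scale, beside 0.09 for all genes. With scaling by total counts the median of all genes shifted up by 0.14. The members' counts became 32 higher and 31 lower, and their median was -0.03. Over all genes that scaling took the counts from 5559 higher and 4859 lower to 6494 and 4063. The members' median relative to that of all genes was -0.25 with either scaling. Of the proteins with a bacterial counterpart 12 of 45 rose and 24 fell, and of the mitochondria-specific ones 16 of 33 rose and 12 fell; this difference was not tested.

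MRPS7 (ENSG00000125445; GRCh38 chr17:75261674-75266373, plus strand), a core protein of the small subunit and the second most abundant member per length in starved cells, fell most. Its level was 247.1, 300.3 and 304.3 CPM in starved libraries without Torin1 and 88.8, 73.7 and 74.6 CPM with it. The groups stood far apart, with a 3.59-fold lower level (log2 fold change -1.84 ± 0.10, edgeR adjusted p = 4.98e-16). GGA3 and MIF4GD overlap it on the opposite strand.

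MRPL36 (ENSG00000171421; GRCh38 chr5:1798386-1801366, minus strand), the smallest protein of the bacterial large-subunit set, fell from 48.8, 49.0 and 46.8 CPM to 14.6, 14.3 and 15.9 CPM. No library overlapped, and the fold was 3.23 (log2 fold change -1.69 ± 0.13, edgeR adjusted p = 1.42e-12). MRPS12, the decoding-site protein that in bacteria carries streptomycin resistance, fell from 70.4, 78.6 and 81.5 CPM to 39.8, 25.6 and 33.2 CPM (log2 fold change -1.22 ± 0.12, edgeR adjusted p = 5.87e-10). MRPL47 and MRPL27, the latter of which reaches toward the peptidyl transferase centre in bacteria, completed the 5 largest falls with log2 fold changes of -1.40 and -1.26.

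Among the rises with Torin1 in starved cells, MRPL54 and MRPS26 led. MRPL54 reached 24.5, 22.0 and 26.0 CPM from 3.79, 4.34 and 3.86 CPM, which is 6.02-fold (log2 fold change 2.59 ± 0.18, edgeR adjusted p = 1.38e-13). MRPS26 reached 85.5, 75.5 and 90.4 CPM, 5.13-fold its level without Torin1 (log2 fold change 2.36 ± 0.15, edgeR adjusted p = 4.47e-13). MRPL40, a mitochondria-specific protein of the large subunit, rose 3.55-fold (log2 fold change 1.83 ± 0.12, edgeR adjusted p = 6.51e-14). MRPL9, MRPS11, MRPS16 and MRPL10 rose by 1.53, 1.47, 1.38 and 1.34 on the log2 scale. Since this comparison and that of 4 h feeding both use the starved libraries, no likeness between them is given as a result; pairs with no library in common are given below.

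In 1 h fed cells Torin1 gave 30 members higher and 32 lower, where 33.2% of all genes were higher and 29.9% lower. The members' median was -0.09, beside 0.06 for all genes, and it was 0.02 with scaling by total counts, so its sign depends on the scaling. MRPL54 (2.29 ± 0.17), MRPS26 (2.26 ± 0.15), MRPL40 (1.76 ± 0.12), MRPL9 (1.71 ± 0.10) and MRPL58 (1.57 ± 0.16) had the largest log2 rises. MRPS7 (-1.92 ± 0.10), MRPL36 (-1.33 ± 0.13), MRPL47 (-1.21 ± 0.12), MRPL27 (-1.20 ± 0.10) and MRPS15 (-1.10 ± 0.09) had the largest falls. In MRPS7 this took 257.8, 307.1 and 320.1 CPM to 73.0, 82.2 and 79.1 CPM, with no overlap (edgeR adjusted p = 2.46e-16).

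In 4 h fed cells Torin1 mostly lowered the members. Of the 79, 55 fell, 6 rose and 18 did not pass, where 28.6% of all genes fell and 27.4% rose. With scaling by total counts 39 members were lower and 10 higher. Over all genes that scaling took the counts from 4693 lower and 4505 higher to 3453 and 5773. The members' median was -0.45 on the log2 scale, beside 0.02 for all genes, and -0.28 beside 0.19 with total counts. The fall ran through both subunits, with 34 of 51 large-subunit and 20 of 27 small-subunit genes lower. At least 2-fold falls were seen in 11 members and were not counted over all genes.

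MRPS7 was again lowest, at 252.8, 238.6 and 220.8 CPM without and 69.5, 61.2 and 67.8 CPM with Torin1 (log2 fold change -1.84 ± 0.10, edgeR adjusted p = 2.25e-15). The groups were far apart. MRPS12 fell from 94.3, 69.1 and 85.4 CPM to 32.7, 29.3 and 32.7 CPM (log2 fold change -1.39 ± 0.12, edgeR adjusted p = 8.2e-11). MRPL36 (-1.32), MRPS17 (-1.30) and MRPL14 (-1.25) followed.

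The 6 members that Torin1 raised in 4 h fed cells were MRPS33, MRPL10, MRPL40, MRPL48, MRPL9 and MRPL45. MRPS33, a mitochondria-specific protein of the small subunit, went from 33.7, 27.4 and 37.5 CPM to 69.0, 60.6 and 57.2 CPM without overlap (log2 fold change 0.92 ± 0.13, edgeR adjusted p = 3.01e-07). MRPL10, which anchors the stalk, rose by 0.64, MRPL40 by 0.55 and MRPL48 by 0.41 on the log2 scale. MRPL9 and MRPL45, the latter of which tethers the ribosome to the inner membrane, rose by 0.35 and 0.32.

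**Figure D3:**
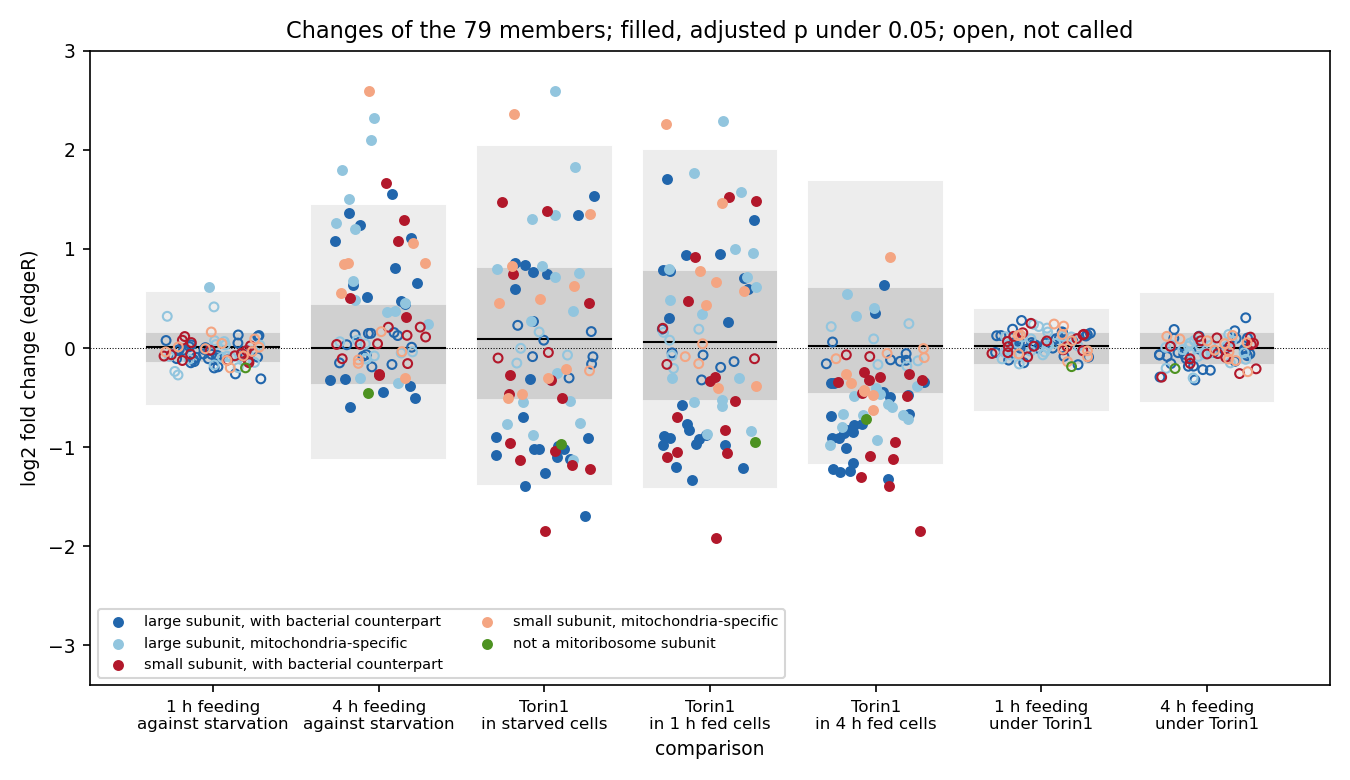
Log2 fold change of each member (points, coloured by class; filled where the edgeR adjusted p is under 0.05) in 7 comparisons, over the middle 90% (light grey) and middle 50% (dark grey) of all genes tested, with their median as a line. Points in the 3 Torin1 comparisons spread from about -1.9 to 2.6 in starved and 1 h fed cells but lie mostly below 0 in 4 h fed cells, and under Torin1 neither time of feeding has a filled point.

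The Torin1 comparisons in the 3 feeding states share no library. Lower levels with Torin1 in all 3 states were called for 32 members (40.5%), against 19.6% of all genes. They include MRPS7, MRPL36, MRPL47, MRPL27, MRPS12, MRPS15, MRPS17, MRPL14, MRPL13, MRPL34, MRPS30, MRPS28, MRPS18A, MRPS18B, MRPS6 and MRPS36. Higher levels in all 3 states were called for 5 members (6.33%), against 18.8% of all genes.

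Higher levels with Torin1 in both starved and 1 h fed cells were called for 27 members (34.2%, against 28.9% of all genes), and 0 members, against 0.0305% of all genes, were called in opposite directions in these 2 states. Of the 27, 11 were lower with Torin1 in 4 h fed cells (13.9% of members, against 1.95% of all genes). These 11, named after their values were seen, are MRPL15, MRPL19, MRPL35, MRPL39, MRPL44, MRPL46, MRPS2, MRPS23, MRPS26, MRPS31 and MRPS5. In the 4 h fed cells the calls of MRPL15, MRPL39, MRPS2, MRPS23, MRPS26 and MRPS5 were lost with scaling by total counts. Those of MRPS23, MRPS26 and MRPS5 were also lost without 4 h fed replicate 1, where MRPS26 had a log2 fold change of -0.25 (edgeR adjusted p = 0.139). In MRPL44 the level was 18.7 to 20.9 CPM in starved and 63.1 to 71.8 CPM in 4 h fed cells without Torin1, and 31.8 to 42.9 CPM over all 9 Torin1 libraries. It thus lay above the starved and below the 4 h fed level in each Torin1 library.

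Over the 79 members, the changes with Torin1 in starved and in 1 h fed cells had a Pearson r of 0.99 (0.85 over all genes). The r was 0.75 between starved and 4 h fed cells (0.65 over all genes) and 0.77 between 1 h and 4 h fed cells (0.64). These are correlations across genes, which are not independent replicates, and genes with more counts are measured more closely.

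The rise with 4 h of feeding and the change with Torin1 in 1 h fed cells also rest on different libraries. Of the members, 27 were higher in both (34.2%, against 15% of all genes) and 12 were lower in both (15.2%, against 12.1%). No member was higher with feeding and lower with Torin1 (0%, against 2.53% of all genes), and none the reverse (0%, against 1.88%). Across the 79 members the r was 0.86, and 0.43 across all genes. The other such pair, 4 h against 1 h of feeding and Torin1 in starved cells, gave r of 0.87 for members and 0.48 for all genes, with 26 members higher in both (32.9%, against 15.4% of all genes).

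**Figure D4:**
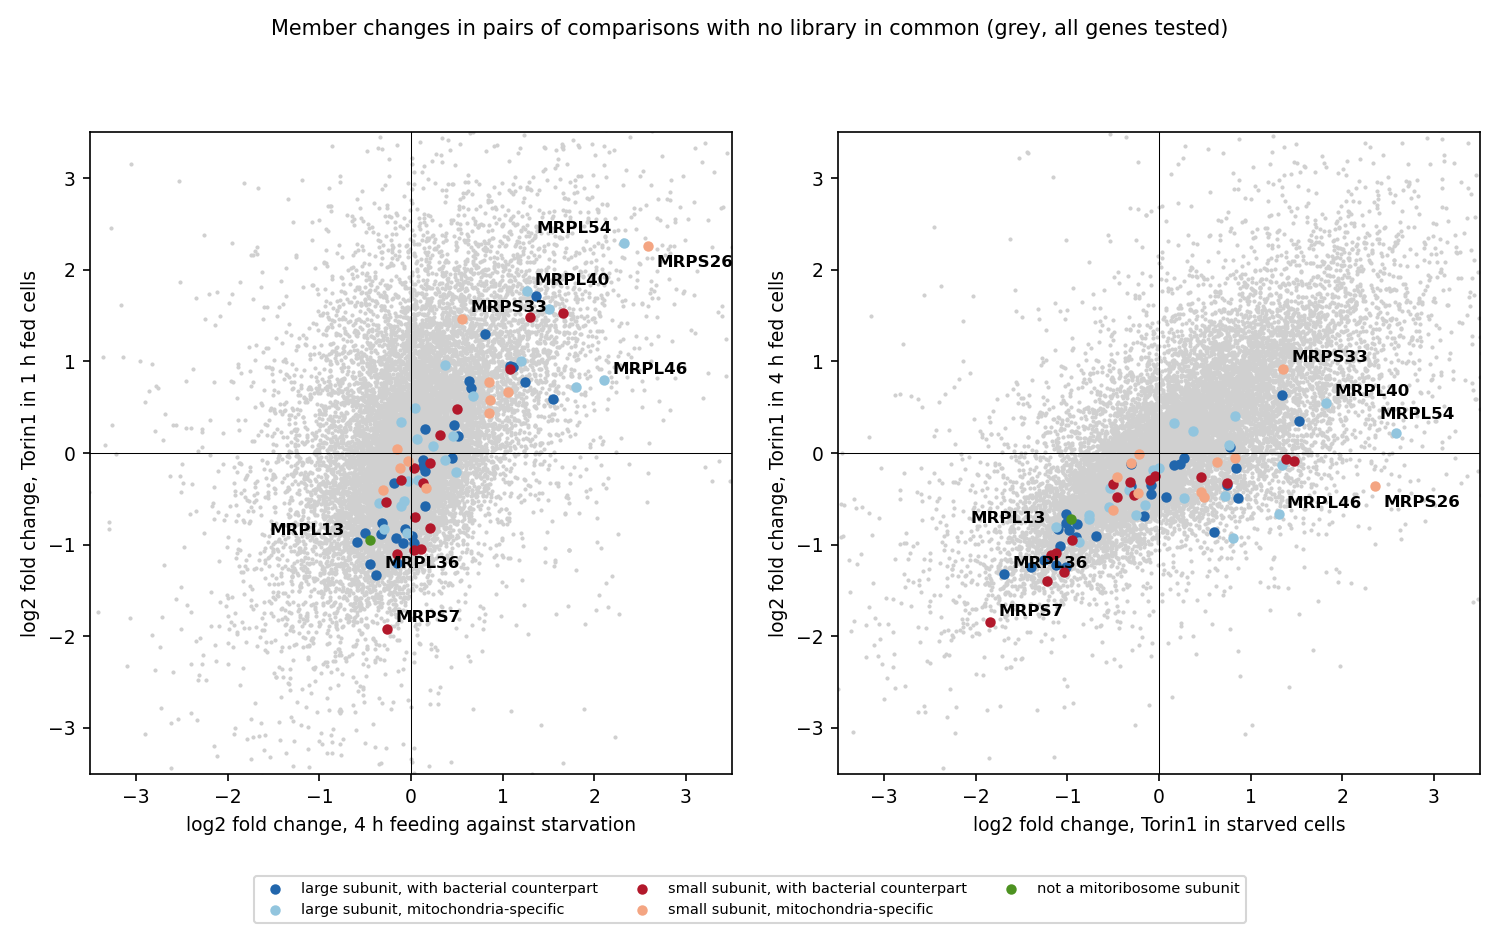
Log2 fold changes of the members (coloured by class) and of all genes tested (grey; those beyond 3.5 on either axis are not drawn) in pairs of comparisons with no library in common: 4 h feeding against Torin1 in 1 h fed cells (left), and Torin1 in starved against 4 h fed cells (right). On the left, members follow a rising band from MRPS7 to MRPS26 (r of 0.86). On the right, of the members that rose in starved cells, MRPS26 and MRPL46 lie below 0 in 4 h fed cells, and MRPS33, MRPL40 and MRPL54 above it.

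With Torin1 present, feeding changed no member by the test. After 1 h, 0 members were called in either direction by edgeR's quasi-likelihood test, DESeq2's Wald test or limma-voom, with 6 members and 1818 of the 16414 genes at an unadjusted p under 0.05; 0.274% of all genes were higher and 0.128% lower. After 4 h, 0 members were called by the same 3 tools, with 8 members and 2150 genes at an unadjusted p under 0.05; 0.829% of all genes were higher and 0.975% lower. The log2 fold changes ran from -0.19 to 0.28 at 1 h and from -0.32 to 0.31 at 4 h. In MRPS26, for example, levels were 85.5, 75.5 and 90.4 CPM in starved, 74.5, 76.5 and 77.4 CPM in 1 h fed and 79.5, 67.0 and 83.8 CPM in 4 h fed cells with Torin1, and these groups overlap.

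The test of the difference itself, the interaction of feeding with Torin1, called 26 members at 4 h, all in the direction of less rise under Torin1, where 16% of all genes went that way and 9.74% the other. The members' median was -0.20, beside -0.02 for all genes. MRPS26 led with -2.72 ± 0.20 on the log2 scale (edgeR adjusted p = 8.76e-11), followed by MRPL54 (-2.37 ± 0.23), MRPL46 (-1.97 ± 0.18), MRPL44 (-1.73 ± 0.15) and MRPS11 (-1.56 ± 0.16). Each of these was also called higher with Torin1 in starved cells, so a negative value does not mean a low level under Torin1. MRPL54 averaged 24.2 CPM in starved cells with Torin1 and 20.05 CPM in 4 h fed cells without it. MRPL44 averaged 34.1 and 68.1 CPM in these groups. Among the members with special roles, MRPL12 had -0.53 ± 0.13 (edgeR adjusted p = 0.00186), MRPL58 -1.47 ± 0.22 and MRPL11 -0.71 ± 0.14. At 1 h the interaction called 0 members with edgeR, DESeq2 or limma-voom, and 4 members and 1072 genes were at an unadjusted p under 0.05, where it called 0.0122% of all genes higher and 0.0548% lower.

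The levels of the members also differed from each other. Expressed per length, as CPM per kilobase of the transcript length weighted by isoform, levels in starved cells ran from 6.39 for MRPL54 to 204.0 for MRPL37, with 199.1 for MRPS7 and 149.0 for MRPL12. The lowest after MRPL54 were MRPS11 (7.01), MRPL35 (7.10), MRPL46 (7.53) and MRPL50 (7.92). MRPL50, unlike the 4 below it, was not called higher with Torin1 in starved cells (log2 fold change -0.15). The SD of log2 level across the 79 members was 1.27, 1.32 and 1.28 in the starved libraries and 1.21, 1.25 and 1.29 in the 1 h fed ones. In the 4 h fed libraries it was 0.95, 0.93 and 0.95, and over the 9 Torin1 libraries it ran from 0.88 to 0.96. The ranges of the 2 sets of libraries do not overlap; they are given as a description, with no test. MRPS7 stood at 166.5 CPM per kilobase after 4 h of feeding and at 46.4 with Torin1 at that time.

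Neither length, base composition nor abundance ordered the changes strongly. Over the 79 members Spearman's rho between the log2 fold change and transcript length lay between 0.23 and 0.31 in the 4 comparisons examined, with GC content between -0.05 and 0.02, and with mean level between -0.17 and 0.05. Members that overlap a gene on the opposite strand were called about as often as the others: with Torin1 in starved cells 12 rose and 20 fell of the 39 that overlap, and 16 rose and 17 fell of the 40 that do not.

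The start regions of the members were examined because the members split into those lowered by Torin1 in every state and those raised by it. RefSeq windows of GRCh38.p14, from 250 bases before to 50 after the annotated start, were found for 70 of the 79 members. Each motif was searched on both strands. The background, called all genes in this paragraph, is the share of 27305 genes with such a window. These include genes not among the 16414 tested and were not matched to the members for expression. The ETS-family core CCGGAAG, bound by factors such as GABPA, was in 42.9% of members and in 12.2% of all genes. The YY1 motif AANATGGC was in 37.1% and 7.97%, the NF-Y box CCAAT in 32.9% and 39.7%, the SP1 box GGGCGG in 61.4% and 48.3%, the E-box CACGTG in 12.9% and 8.77%, the NRF1 motif in 12.9% and 6.98%, and ACTACAA of ZNF143 in 11.4% and 3.43%.

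The motif counts were also split by how the members moved with Torin1. CCAAT was in 15 of 29 members lowered in all 3 states and in 3 of 24 raised in starved and 1 h fed cells, and AANATGGC was in 15 of 29 and 3 of 24. The ETS core was in 13 of 29 and 12 of 24. AANATGGC holds the start codon letters, and most of its matches lay in the last 50 bases of the window. In the 250 bases before the start it was in 5 of 70 members (7.14%), against 4.71% of the 27305 genes with a window. CCAAT was there in 14 of 29 lowered and 2 of 24 raised members, against 37.0% of the 27305 genes. These splits were noticed in the data and carry no test, and a match of letters is not a bound site.

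The following stretches before the start are examples for members whose values are given here. Since the first 3 were required to hold a match and the next 3 were not, they do not show how often the motifs occur. They are the parts of the windows outside any GENCODE exon, at least 100 bases long, written 5′ to 3′ on the gene's strand, with CCAAT or its reverse complement in capitals. The first 3 are the members with the largest falls with Torin1 in starved cells whose stretch holds a match of CCAAT or AANATGGC, MRPL27 (GRCh38.p14 chr17:50373278-50373434, minus strand), MRPS30 (chr5:44808778-44808924, plus strand) and MRPL4 (chr19:10251701-10251900, plus strand).
MRPL27: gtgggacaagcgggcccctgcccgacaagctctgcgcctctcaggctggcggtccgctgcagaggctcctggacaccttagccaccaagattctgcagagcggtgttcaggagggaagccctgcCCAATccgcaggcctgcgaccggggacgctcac
MRPS30: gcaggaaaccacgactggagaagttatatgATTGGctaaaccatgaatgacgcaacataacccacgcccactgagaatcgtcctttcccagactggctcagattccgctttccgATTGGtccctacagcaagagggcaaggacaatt
MRPL4: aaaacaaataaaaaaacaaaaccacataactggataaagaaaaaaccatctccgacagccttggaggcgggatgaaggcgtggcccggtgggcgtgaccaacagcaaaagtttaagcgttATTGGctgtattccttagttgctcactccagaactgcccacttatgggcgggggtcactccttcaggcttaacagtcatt

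The next 3 are the members with the largest rises whose stretch is as long, MRPL54 (GRCh38.p14 chr19:3762432-3762663, plus strand), MRPS26 (chr20:3045802-3045944, plus strand) and MRPS33 (chr7:141014984-141015094, minus strand), chosen without regard to motifs. No stretch of these 3 holds CCAAT, AANATGGC or CCGGAAG, but the full windows counted above do: that of MRPS33 holds CCAAT and the ETS core, and those of MRPL54 and MRPS26 hold the ETS core.
MRPL54: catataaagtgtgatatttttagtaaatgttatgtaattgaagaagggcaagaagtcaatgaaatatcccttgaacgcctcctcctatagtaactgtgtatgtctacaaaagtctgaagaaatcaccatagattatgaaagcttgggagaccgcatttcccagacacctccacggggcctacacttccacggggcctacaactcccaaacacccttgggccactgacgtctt
MRPS26: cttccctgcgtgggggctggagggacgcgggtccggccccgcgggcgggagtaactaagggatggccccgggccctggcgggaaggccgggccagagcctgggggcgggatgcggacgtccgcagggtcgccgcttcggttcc
MRPS33: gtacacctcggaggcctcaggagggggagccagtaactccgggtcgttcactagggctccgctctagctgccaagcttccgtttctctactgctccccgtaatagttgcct
The MRPS30 stretch holds 2 matches and the MRPL27 and MRPL4 stretches 1 each. MRPS30 fell from 108.1, 110.6 and 109.8 CPM to 51.0, 49.1 and 50.01 CPM with Torin1 in starved cells. There MRPL4 had a log2 fold change of -1.08 and MRPS33 one of 1.36. MRPL27 fell, and MRPS26 and MRPL54 rose, as given above.

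Some of these genes start close to another gene on the opposite strand. Of the 79, 29 have a protein-coding gene on the opposite strand whose start lies within 1000 bases. Some of these overlap the member, as GGA3 does MRPS7 and SARS2 does MRPS12. The share over all genes was not counted. The following pairs were picked after their values were seen, and whether such pairs move together more often than other genes was not tested. MRPL46 and MRPS11, whose starts lie 34 bases apart, rose together with 4 h of feeding (log2 fold changes 2.10 and 1.66) and with Torin1 in starved cells (1.30 and 1.47). MRPL18 and TCP1, a chaperonin subunit, fell together with Torin1 in starved cells (-0.91 and -1.43). MRPS12 fell there by 1.22 on the log2 scale while SARS2, the mitochondrial seryl-tRNA synthetase, rose by 0.66, and MRPS7 fell by 1.84 while GGA3 rose by 0.61.

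The isoform table gave a further readout, the share of each gene's counts per transcript, for 67 members with at least 2 kept isoforms. A gene-level F test called changed isoform use with Torin1 in 20 members in starved cells (15.1% of all genes), 25 in 1 h fed cells (16.2%) and 12 in 4 h fed cells (11.3%). The stricter Simes test called 4 (5.23% of all genes), 7 (5.1%) and 2 (3.55%). With 4 h of feeding both called 1 member, MRPL34 (3.29% and 1.34% of all genes). Transcripts of 1 gene share most of their sequence, so these shares are estimates by the authors' counting.

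In MRPL24, a large-subunit protein of the bacterial set, the transcript MRPL24-205 made up 30.8 to 37.3% of the gene's counts in starved libraries and 0.148 to 0.432% in those with Torin1 (F test adjusted p = 5.27e-08, Simes adjusted p = 4.21e-07, both from edgeR). It was 11.3 to 19.5% in 4 h fed cells, where isoform use of MRPL24 did not pass the test against starvation (edgeR F test adjusted p = 0.194). MRPL24-201 rose from 19.7 to 28.6% up to 47.6 to 49.9%. The log2 fold change of the gene's total was 0.27.

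MRPL13-202, annotated as a target of nonsense-mediated decay, took 33.7 to 37.0% of MRPL13 counts in starved libraries and 4.04 to 7.10% with Torin1 (edgeR F test adjusted p = 1.71e-05, Simes 0.0252). It was 15.9 to 20.3% after 4 h of feeding, where the test against starvation did not pass (edgeR F test adjusted p = 0.378). In MRPS7 the transcript MRPS7-204 went from 41.6 to 44.0% down to 15.9 to 21.4% with Torin1 in starved cells, and MRPS7-201 from 21.6 to 31.8% up to 50.9 to 63.1% (edgeR F test adjusted p = 1.27e-05, Simes 0.0132). Both are annotated as protein-coding.

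MRPS30-201, a transcript annotated as processed and not coding, rose from 6.47 to 7.93% up to 26.9 to 31.3% of MRPS30 counts with Torin1 in starved cells (edgeR F test adjusted p = 3.05e-07; Simes 0.0561, which misses the threshold). MRPS18C-204 fell from 17.4 to 23.7% down to 1.33 to 2.83% there (F test adjusted p = 0.00019; Simes 0.0763). In 1 h fed cells MRPS18C passed both tests (F test adjusted p = 3.66e-05, Simes 0.0288 in edgeR), although its total did not pass the gene test there. MRPL45-204 fell in 1 h fed cells from 12.4 to 20.4% down to 1.40 to 1.97% (F test adjusted p = 3.00e-05, Simes 0.0131). DAP3 was called there by both tests as well (7.78e-08 and 4.28e-05), with DAP3-202 at 16.2 to 24.3% without and 24.5 to 37.6% with Torin1.

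MRPL34-201 held 61.8 to 73.5% of MRPL34 counts in starved cells and 17.6 to 48.4% after 4 h of feeding (edgeR F test adjusted p = 0.00469, Simes 0.0147). In 4 h fed cells with against without Torin1, MRPL42 passed both tests (0.00113 and 0.00404), with MRPL42-206 at 10.5 to 20.8% without and 35.1 to 42.8% with the inhibitor. Over all members, transcripts annotated as targets of nonsense-mediated decay took 3.36% ± 0.034 (SD, n = 3) of counts in starved cells and 2.44% ± 0.143 with Torin1. Over all protein-coding genes these shares were 2.71% and 2.43%.

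**Figure D5:**
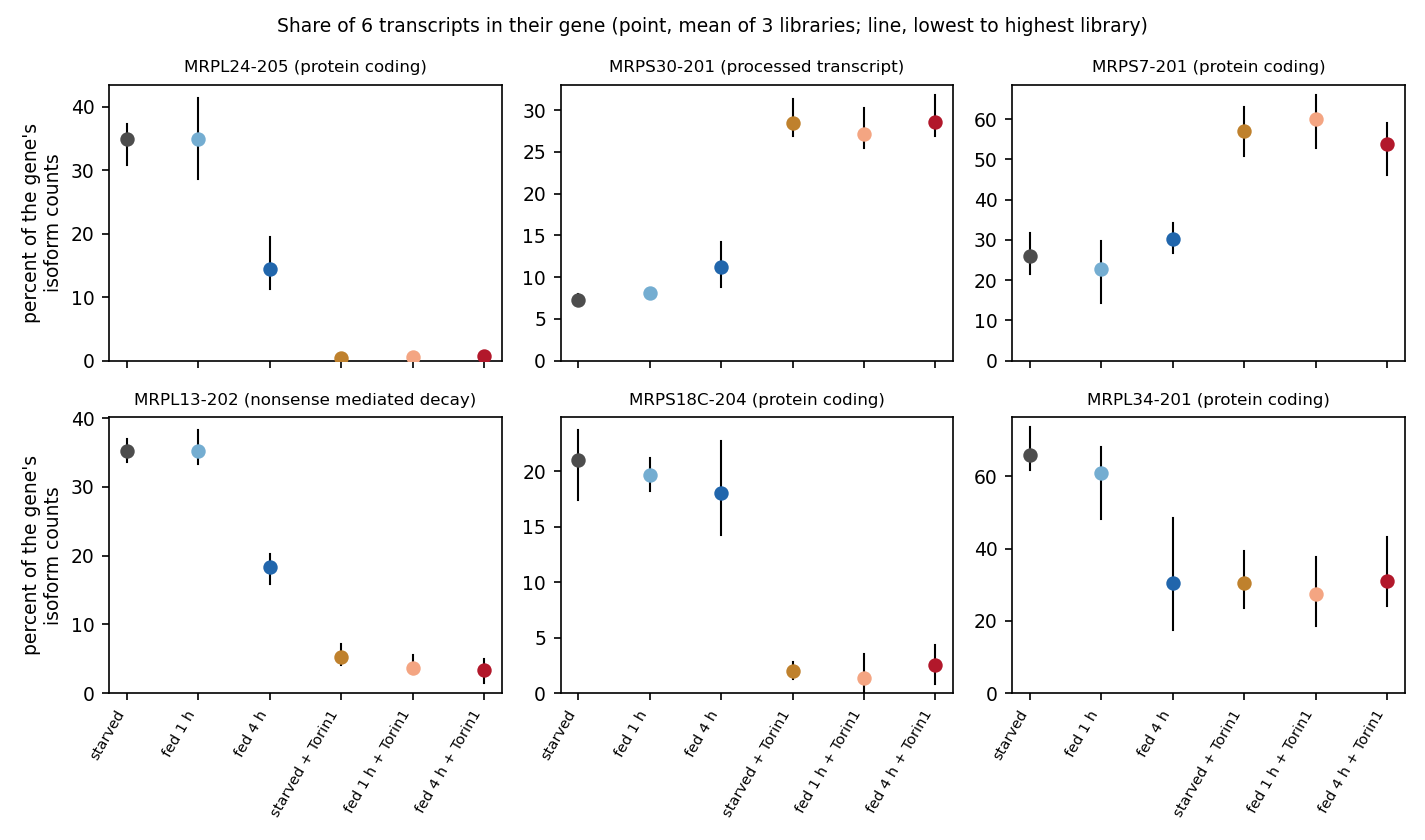
Share of 6 member transcripts in the isoform counts of their gene, in percent, by group (points, mean of 3 libraries; lines, lowest to highest library; vertical axes start at 0). MRPL24-205, MRPL13-202 and MRPS18C-204 are much lower in the 3 Torin1 groups, MRPS30-201 and MRPS7-201 rise there, and MRPL34-201 is already lower in 4 h fed cells.

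Other genes that serve the mitochondrial ribosome were compared as lists. Over all genes, 23.2% rose and 19.1% fell with 4 h of feeding. With Torin1 these shares were 33.9% and 29.6% in starved cells and 27.4% and 28.6% in 4 h fed cells. No list was tested against these shares. Of 4 further subunits with other symbols, 1 rose with 4 h of feeding, GADD45GIP1 (log2 fold change 0.79), and with Torin1 in starved cells 2 rose and 2 fell, with AURKAIP1 at -0.97. Of 26 genes for assembly and rRNA modification, 10 rose and 5 fell with 4 h of feeding, 7 rose and 13 fell with Torin1 in starved cells, and 2 rose and 16 fell with it in 4 h fed cells. ERAL1, a GTPase that binds the small-subunit rRNA, rose by 2.08 with 4 h of feeding and by 1.93 with Torin1 in starved cells on the log2 scale. MPV17L2, an assembly factor, had -1.68 with Torin1 in starved and -1.54 in 4 h fed cells.

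Of 17 mitochondrial translation factors, 7 rose and 2 fell with 4 h of feeding (23.2% and 19.1% of all genes). With Torin1 in starved cells 6 rose and 9 fell (33.9% and 29.6% of all genes). With it in 4 h fed cells 2 rose and 9 fell (27.4% and 28.6% of all genes). TACO1, the translational activator of COX1, had 9.64 ± 1.08 CPM (SD, n = 3) in starved cells, 68.2 ± 2.55 CPM after 4 h of feeding and 42.7 ± 4.48 CPM with Torin1 in starved cells. It rose in both comparisons (log2 fold changes 2.82 ± 0.14 and 2.15 ± 0.14, edgeR adjusted p = 4.02e-16 and 6.84e-14). MTRF1L, a release factor, fell by 1.31 on the log2 scale with Torin1 in starved cells.

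Of 18 genes of mitochondrial transcription and its nuclear regulators, 11 rose and 4 fell with 4 h of feeding (23.2% and 19.1% of all genes). With Torin1 in 4 h fed cells 16 fell and 0 rose by edgeR's test (28.6% and 27.4% of all genes). There 16 of 18 had an unadjusted p under 0.05. PPRC1, a coactivator of NRF1, rose from 85.3 ± 3.67 to 246.8 ± 23.2 CPM with 4 h of feeding (log2 fold change 1.53 ± 0.09, edgeR adjusted p = 3.51e-15) and was 92.5 ± 1.42 CPM in 4 h fed cells with Torin1. NRF1 rose by 0.99 and TFAM, the packaging factor of mitochondrial DNA, by 0.77 with 4 h of feeding, and Torin1 lowered them in 4 h fed cells by 0.39 and 0.67 on the log2 scale. GABPA rose by 0.39 with feeding and had -0.89 (starved), -0.82 (1 h fed) and -1.21 (4 h fed) when Torin1 was added. YY1 had -0.30 with 4 h of feeding and -0.47, -0.42 and -0.37 with Torin1 in these states. MYC had log2 fold changes of 0.43 with 4 h of feeding, 0.92 with Torin1 in starved cells and -0.37 with it in 4 h fed cells. PPARGC1A was under 2 CPM on average in each of these groups and was not called.

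The 78 cytosolic ribosomal protein genes behaved otherwise. With 4 h of feeding 1 rose and 27 fell (23.2% and 19.1% of all genes), with a median of -0.18. With Torin1 in 4 h fed cells 32 rose and 5 fell (27.4% and 28.6% of all genes), with a median of 0.18. The members' medians in these comparisons were 0.15 and -0.45. The difference between the 2 families was not tested. The 2 mitochondrially encoded rRNAs varied between libraries: MT-RNR1 was at 644.6 ± 81.8 CPM (SD, n = 3) in starved and 2812 ± 2101 CPM in 4 h fed cells, and MT-RNR2 at 3764 ± 139.5 and 2982 ± 326.7 CPM.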

How the data were processed

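RNA sequencing of 18 libraries (6 groups of 3) was analysed from the authors' deposited gene table of expected counts and isoform table of counts, both unnormalized. Per the submitters' processing notes STAR, RSEM and DESeq2 were used, with no versions. The labels name a nematode genome for the alignment, whereas the identifiers are human; the human build is not given in the sources used here. Of gene values, 3.32% were not whole and were rounded. Symbols came from a table of Ensembl identifiers (60295 matched), and coordinates and transcript types from GENCODE 29 (205950 of 227368 isoforms matched).

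Genes were kept by filterByExpr (minimum count 10), normalized by TMM and fitted in edgeR 4.0.16 (R 4.3.3) as 6 group means over 18 libraries, with robust quasi-likelihood F tests. P-values were adjusted by Benjamini-Hochberg over all 16414 genes. The residual degrees of freedom were 12 and the biological coefficient of variation 10.6%. SE is the log2 fold change divided by the square root of F. CPM are TMM-scaled. A count of 0 allowed up to 0.219 to 0.285 CPM (3 counts of a library's total; counting error only). Isoform use was tested with diffSpliceDGE over 10700 genes. Both tests were checked on simulated data. Of 1.5-fold changes, 47.8% were recovered for 4 h of feeding and 22.4% for the 4 h interaction. For 2-fold changes these were 83.6% and 73.1%, so smaller changes can be missed. Only 67 genes were changed at each of these folds, far fewer than were called in the data. They were not matched to the members for level, so these shares are not recovery rates for the members. For isoform use, the F test called 33 unchanged genes and the Simes test 10.

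Members were chosen by symbol and not by measured values, but earlier results of these data were known when members and lists were chosen. Named are, per comparison, the 5 largest called, non-overlapping changes each way, minority-direction calls, up to 5 isoform calls and 16 members fixed by role. From the lists, regulators and some genes with large called changes are named, not always those with the largest. Other members are named for their rank in level per length, within lists of calls or as promoter examples, or are marked as chosen after their values were seen. Alternatives were DESeq2 1.42.0 and its size factors, total counts, limma-voom 3.58.1, other filters, a replicate block, only the groups compared, and leaving out each library. Markers also included fibroblast (3 of 5 with a mean of at least 10 counts), immune (1 of 4) and endothelial (0 of 3) lists.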

Additional observations from a re-analysis of the deposited data

Results flagged for a closer look

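The effect of 4 h of feeding differed between cells without and with Torin1 in 26 members, by edgeR's test of the interaction with an adjusted p under 0.05. The value in each case is the log2 fold change with feeding under Torin1 minus that without it. All 26 were called with values below 0, where the same test called 16% of all genes below 0 and 9.74% above. The largest were MRPS26 (-2.72), MRPL54 (-2.37), MRPL46 (-1.97), MRPL44 (-1.73) and MRPS11 (-1.56). Each of these was also called higher with Torin1 in starved cells, so a negative value does not mean a low level under Torin1. Values from -1.47 to -0.97 were found for MRPL58 (-1.47), MRPL35 (-1.45), MRPS16 (-1.45), MRPL19 (-1.35), MRPL40 (-1.28), MRPL39 (-1.19), MRPL9 (-1.18), MRPL15 (-1.09), MRPS2 (-1.07), MRPL16 (-0.99) and MRPS31 (-0.97). Smaller ones were found for MRPS23 (-0.88), MRPS25 (-0.88), MRPL42 (-0.76), MRPS35 (-0.73), MRPL11 (-0.71), MRPS5 (-0.71), MRPL10 (-0.70), MRPL38 (-0.67), MRPL3 (-0.56) and MRPL12 (-0.53). Each was called under all alternatives run for it.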

How the results depend on the processing

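No called member changed direction under any alternative. Leaving out a library in turn lost the call of 9 of 46 members with 4 h of feeding, 7 of 65, 5 of 62 and 8 of 61 with Torin1 in starved, 1 h and 4 h fed cells, and 0 of 26 in the 4 h interaction; total counts lost 0, 6, 3, 16 and 0. Libraries with the same replicate number were not treated as pairs, since their deviations did not correlate above 0.1 in every pair (-0.108 to 0.162, median 0.038; different numbers -0.111 to 0.113, median -0.02). A shared component is hinted at by the data: 13 of 18 libraries were closest to their own number, and replicate 1 had the lowest mitochondrially encoded share in all 6 groups. With the replicate block the 4 h interaction gave 1 higher member instead of 0, and all other counts and medians stayed close. MRPL46 at 1 h was not called (0 higher) with total counts, limma-voom or only the groups compared, and without single libraries the count was 0 to 1. Lower members at 4 h against 1 h were 8 with DESeq2's size factors, 9 with DESeq2's Wald test, 3 with no filter, 2 with only the groups compared and 2 to 5 without single libraries, against 5. Scaling by total counts gave member medians with Torin1 of -0.026 (starved), 0.023 (1 h fed) and -0.28 (4 h fed), against -0.16, -0.09 and -0.45, and 10 higher in 4 h fed cells, against 6. Without single libraries the starved median ran from -0.24 to -0.13 and the 4 h interaction median from -0.24 to -0.12. With 4 h of feeding under Torin1, 1 member was lower with only the groups compared, and 0 to 1 without single libraries. The 4 h interaction gave 1 higher member with DESeq2's size factors, total counts or a mean of at least 50 counts, 2 with DESeq2's Wald test and 0 to 1 without single libraries. Isoform use with Torin1 gave, by Simes, 4 (starved), 7 (1 h fed) and 2 (4 h fed) members, against 20, 25 and 12 by the F test; a minimum count of 30 gave 19 in 4 h fed cells; without single libraries the ranges were 12 to 14, 14 to 19 and 8 to 14, and 1 to 2 with 4 h of feeding. The causes of these changes were not tested. The lowest member count in a library, 39 for MRPL54, limits its precision most.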
